A study of Saccharomyces cerevisiae with 6 samples.

Results

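The genes described here make GTP in budding yeast. They are IMD2, IMD3 and IMD4, which encode IMP dehydrogenase, GUA1, which encodes GMP synthase, and HPT1, which encodes the hypoxanthine and guanine salvage enzyme. They were picked by name, and all 5 had a probe set, out of 5449 genes measured. The choice was made with the fall of IMD2 in these arrays already known, so the differences of the 5 genes between groups are given as a description, without p-values.

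Arrays came from 2 groups of the haploid laboratory strain BY4741, with 3 arrays in each. The first group is labelled as ypr045c∆, a deletion of YPR045C (THP3), and the second as wild type without that deletion. BY4741 carries deletions in HIS3, LEU2, MET17 and URA3, which both groups share. Cells were in exponential growth in YPD, a rich medium, and the labels do not say whether the arrays of a group came from separate cultures or whether the deletion strain was 1 clone. The p-values below therefore cover no more than array-to-array spread, part of which may be technical.

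Purine synthesis in yeast runs through IMP, from which separate branches lead to AMP and to GMP. IMP dehydrogenase takes the rate-limiting step of the GMP branch and makes XMP, which GMP synthase converts to GMP. Hpt1 rejoins hypoxanthine or guanine to a ribose phosphate and so bypasses synthesis from small precursors. IMD2 is known to be induced when GTP runs low, through a choice between upstream start sites that give a short, unstable transcript and a downstream start that gives the mRNA. It is the member of the family that makes yeast resistant to mycophenolic acid, an IMP dehydrogenase inhibitor, and its induction is used as a test in mutants of transcription elongation. IMD3 and IMD4 are the forms made in quantity in GTP-replete cells, and IMD1 is a pseudogene in laboratory strains.

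THP3, the targeted gene, had deposited intensities of 950, 894 and 529 in the arrays labelled deletion, against 733, 678 and 463 in those labelled wild type. The group values overlapped, and the targeted gene was thus not lower in the group labelled as its deletion (log2 difference 0.33 ± 0.25, SE, limma adjusted p = 0.39, exact two-sided permutation p = 0.4). With 3 against 3 arrays the permutation test cannot give a p under 0.1. A fit that took the arrays numbered 3 as a batch called THP3 higher in the group labelled deletion (limma adjusted p = 0.015). Whether its probes lie in the deleted part was not known here. Each direction below rests on the labels. The summed intensity was 17790600 to 18431400 per array. A second principal component, with 13.2% of the variance, placed both arrays numbered 3 at 6.23 and 7.36 and the other 4 between -4.72 and -2.33. All 5 marker genes of a MATa haploid, such as MFA1 and STE2, were bright, with group means of 12.42 to 13.77 (labelled deletion) and 12.24 to 13.79 (labelled wild type) on the log2 scale. The 4 genes of MATalpha cells spanned 6.66 to 9.16 and 6.54 to 10.39, with SAG1 on chromosome X the brightest. Of the genes deleted in BY4741, URA3 and MET17 lay below the background limit of 6.48 in both groups, while HIS3 (11.60 and 11.55) and LEU2 (8.52 and 8.79) did not. The background limit is the level that 95% of the S. pombe probe sets on the same arrays stayed under. THP3, the targeted gene, stood 8.77-fold over this limit in the group labelled deletion and 6.99-fold over it in the group labelled wild type.

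IMD2 had the largest difference of the 5 genes. It had deposited intensities of 1078, 826 and 975 in the arrays labelled deletion, against 1789, 1817 and 1741 in those labelled wild type. Every array labelled deletion lay below every array labelled wild type, and the lowest was the second of the deletion group. After quantile normalization the groups lay apart in this way for 16.2% of all genes. The means were 960 ± 127 and 1782 ± 38.8 (SD, n = 3 each), so the coefficient of variation was 13.2% in the group labelled deletion and 2.18% in the other. After quantile normalization the log2 level was 9.94 ± 0.20 in the group labelled deletion and 10.79 ± 0.03 in the group labelled wild type (SD, n = 3 each). The log2 difference was -0.85 ± 0.10 (SE), with a 95% interval of -1.08 to -0.61. The labelled wild type was thus 1.80-fold higher than the labelled deletion. The level of IMD2 stood 11.0-fold over the background limit in the group labelled deletion and 19.7-fold over it in the other.

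IMD3, which encodes one of the abundant IMP dehydrogenase forms, did not separate the groups. It gave 10134, 9878 and 10835 in the arrays labelled deletion, against 10713, 10722 and 10908 in those labelled wild type. The third deletion array lay within the wild-type values and the other 2 lay below them. The log2 difference was -0.05 ± 0.05 (SE), with an interval of -0.17 to 0.06.

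IMD4, which encodes the other abundant form, gave 12526, 12594 and 13117 in the arrays labelled deletion, against 13185, 13311 and 14003 in those labelled wild type. On this deposited scale the deletion values were all lower, whereas after quantile normalization the groups overlapped. The log2 difference was -0.06 ± 0.05 (SE), with an interval of -0.17 to 0.05. IMD4 is known to hold an intron, and its gene length in the R64 table, 1983 bases, includes it. That of IMD2 and of IMD3 is 1572 bases each. The arrays measure mRNA level and not splicing.

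GUA1, the next step of the branch, gave 12764, 12507 and 12519 in the arrays labelled deletion, against 12514, 12085 and 12626 in those labelled wild type. These deposited values overlapped, while after quantile normalization all 3 deletion values were higher, as was the case for 25.1% of all genes. The difference of GUA1 was small on the log2 scale, 0.06 ± 0.04 (SE; interval -0.03 to 0.15), and it turned to -0.07 with median centring.

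HPT1, the salvage gene, gave 6633, 6050 and 6570 in the arrays labelled deletion, against 6112, 5415 and 5786 in those labelled wild type. The second array of each group was the lowest, and the deposited values overlapped by 1 array. On the normalized scale all 3 deletion values of HPT1 were higher, as was the case for 25.1% of all genes. The log2 difference was 0.17 ± 0.05 (SE), with an interval of 0.04 to 0.30 that is not adjusted for the number of genes. HPT1 was not called in the main fit, and its difference was 0.060 with median centring.

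**Figure D1:**
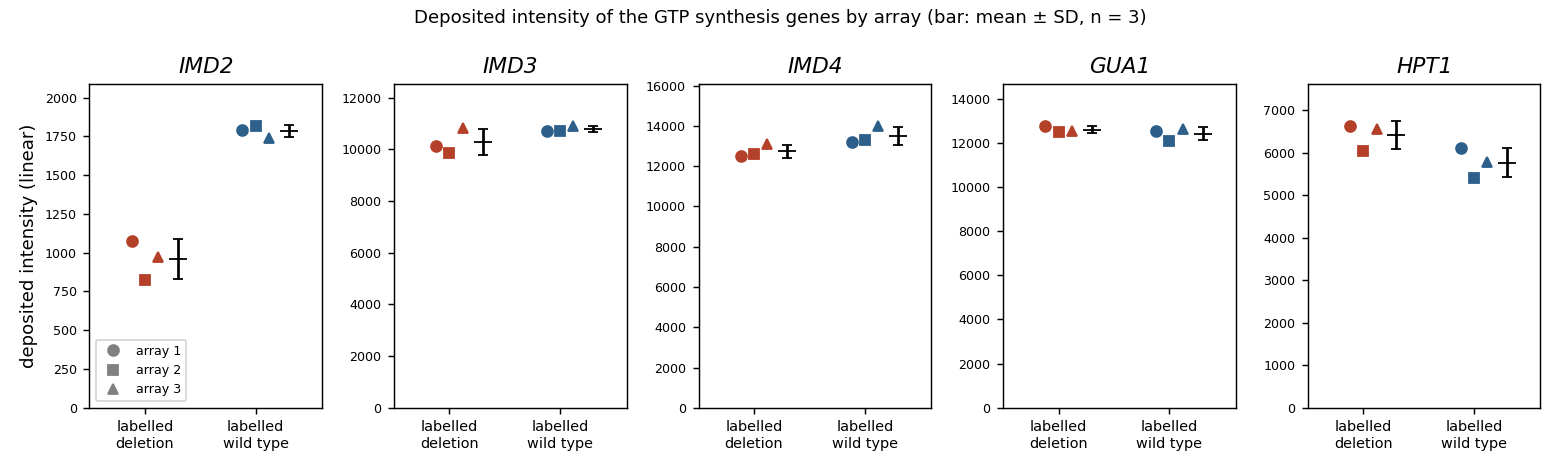
Deposited intensity on a linear scale (y axis, from 0) of the 5 GTP synthesis genes in each array, with the arrays labelled deletion in red and those labelled wild type in blue. Symbols give the array number and bars the mean ± SD (n = 3); IMD2 lies at 826 to 1078 in the labelled deletion and at 1741 to 1817 in the labelled wild type, while the groups of the other 4 genes lie close together.

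Of the 5 genes, 1 passed the threshold of an adjusted p of 0.05 in the limma fit over all genes, IMD2, which was lower in the group labelled deletion. Among all genes 10.2% were called lower and 11.6% higher, and rises made up 53.2% of the calls (43% as deposited, 23.1% with median centring). The choice of IMD2 used this comparison, so nothing is read from the count. With a trended, robust spread model, or with the array number as a block, HPT1 was called higher as well, which made 2 of 5. The median difference of the 5 genes was -0.05, beside 0.03 for all genes. Median centring put the median of all genes at -0.08, a shift of more than 0.1 from quantile normalization. It centred each array on the median of all 10928 probe sets, of which 5498 were named for S. cerevisiae genes. The others included S. pombe and unnamed sets. The log2 medians of the deposited values ran from 7.26 to 7.52, highest in the second array labelled deletion. Relative to the median of all genes, the differences were -0.88 for IMD2, -0.09 for IMD3, -0.09 for IMD4, 0.02 for GUA1 and 0.14 for HPT1 after quantile normalization. With median centring the same relative differences were -0.90, -0.08, -0.09, 0.01 and 0.14, and the order of the 5 genes was the same under both. All 5 stood at least 11.0-fold over the background limit in both groups. How far these arrays compress differences of bright probe sets such as those of IMD3, IMD4 and GUA1 was not measured.

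Genes of chromosome X were lower as a group in the arrays labelled deletion, with a median log2 difference of -0.79 over 316 genes and 0.04 over the 5133 others. None of the 5 GTP synthesis genes lies there. IMD2 is on chromosome VIII, IMD3 on XII, IMD4 and GUA1 on XIII and HPT1 on IV. In the whole array 135 genes had a lower difference than IMD2, of which 116 lay on chromosome X and 19 elsewhere. Outside chromosome X, 5.05% of genes were called lower. When chromosome X genes were removed ahead of normalization, the difference of IMD2 was -0.89.

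**Figure D2:**
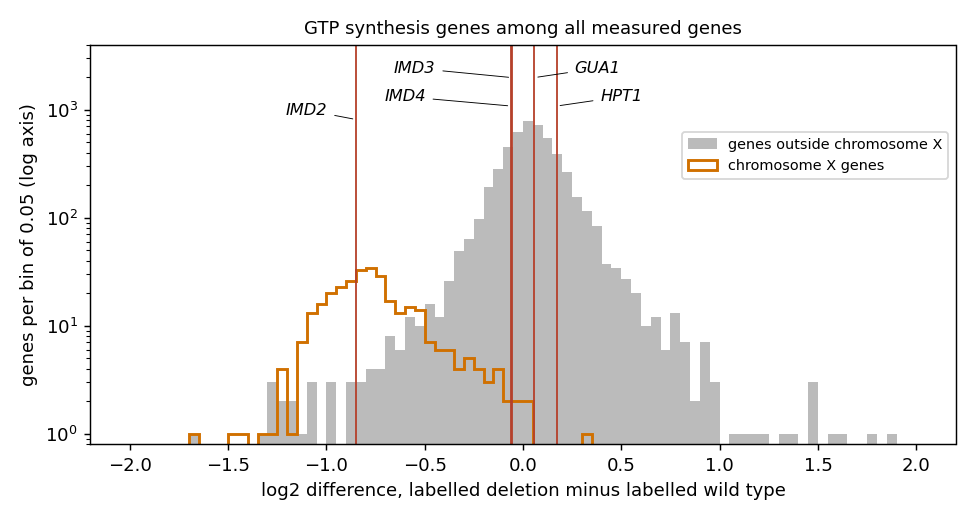
Number of genes (y axis, log scale) in bins of 0.05 of the log2 difference between labelled deletion and labelled wild type (x axis), in grey for genes outside chromosome X and as an orange outline for chromosome X, with 7 genes beyond 2 in size not drawn. Red lines mark the 5 GTP synthesis genes; IMD2 at -0.85 lies among the chromosome X genes, and the other 4, between -0.06 and 0.17, lie in the main body.

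The probe sets differed in type. IMD3, IMD4, GUA1 and HPT1 were each read from a plain _at set, and IMD2 from an _x_at set, a type in which some probes also match other sequences. None of the 5 had an _s_at set, the type shared by several transcripts, and each gene had 1 probe set. No probe set was named for IMD1. Part of the IMD2 signal may therefore come from a related transcript, which was not tested. Of the 16 genes read from an _x_at set, IMD2 had the lowest difference, followed by PAU14 at -0.26, a member of the seripauperin family of cell wall proteins. Of these 16 genes, 2 were called lower (12.5%) and 1 higher (6.25%), and their median difference was -0.01.

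Neighbouring genes were examined because IMD2 is subtelomeric. Only 2 protein-coding genes lie between it and the right end of chromosome VIII, and neither had a named probe set. The 5 nearest measured genes on the other side have systematic names only. YHR214C-E differed by 0.62 ± 0.20 (SE; limma adjusted p = 0.072; over the alternatives 0.00017 to 0.33), with 6.48, 6.72 and 6.83 in the arrays labelled deletion and 6.52, 5.86 and 5.78 in those labelled wild type, close to the background limit. The other 4 differed by 0.10 to 0.17 and were not called. Of these, YHR212W-A (5.83 in the labelled deletion, 5.66 in the labelled wild type) and YHR213W (6.07 and 5.91) lay below the background limit. YHR214C-D lay at it (6.60 and 6.44) and YHR213W-A above it (7.71 and 7.60). None of the 5 was called lower, but genes at or under the limit could hardly show a fall. Between IMD2 and these genes lie 1 to 9 other protein-coding genes, so a local fall was not tested. Beside HPT1, the nucleosidase gene URH1 rose in the group labelled deletion. Its deposited intensity reached 1490, 1598 and 1299 there, against 1039, 1016 and 1004 in the labelled wild type (log2 difference 0.55 ± 0.07; limma adjusted p = 0.0018). Beside IMD3, the autophagy gene ATG23 rose as well (0.31 ± 0.06; limma adjusted p = 0.010; over the alternatives 0.0046 to 0.076). The nearest measured genes on the other sides of IMD3 and HPT1, and on either side of IMD4 and GUA1, differed by -0.18 to 0.14 and were not called.

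The rest of the purine pathway was described from lists of genes named for their role. Outside the 5 GTP synthesis genes, 38 of 39 listed genes were measured. Of these 9 rose and 2 fell, or 23.7% and 5.26%, against 11.6% and 10.2% of all genes, and their median difference was 0.11. The same shares of all genes stand beside the main-fit counts of each list below. Both that fell, ADO1 and XPT1, lie on chromosome X. Of the rises, 3 came from the transport list, namely the vitamin B6 transporter TPN1 and 2 relatives of FCY2, FCY21 and FCY22. The count of rises was not stable. It was 4 of 38 (10.5%) without ypr045c_deletion replicate 1 (7.32% of all genes), without ypr045c_deletion replicate 3 (8.39%), without wild_type replicate 2 (8.50%) or without both arrays numbered 3 (6.46%). It was 4 of 36 (11.1%) without chromosome X genes (7.36% of all genes). As deposited, 6 rose (15.8%) and 4 fell (10.5%), against 8.79% and 11.7% of all genes, and after median centring 3 rose (7.89%) and 4 fell (10.5%), against 4.73% and 15.7%.

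Genes of the enzymes that build IMP had differences above 0 in 8 of 8 cases, where 59.8% of all genes did, and in 4 of 8 with median centring, where 27.9% did. Relative to the median of all genes, their median lay 0.10 higher, and 0.08 higher with median centring. Of these 2 rose, 0 fell and 6 did not pass, with a median difference of 0.13. ADE17, which encodes the last enzyme of IMP synthesis, stood at 12.59, 12.55 and 12.66 in the arrays labelled deletion and at 12.19, 12.08 and 12.21 in those labelled wild type. All 3 deletion values were higher, by 0.44 ± 0.05 (SE; limma adjusted p = 0.0014), and ADE17 was called under all 20 alternatives. Its paralog ADE16 differed by 0.06 ± 0.04 and was not called. ADE8, the glycinamide ribotide transformylase gene, rose by 0.26 ± 0.04 (limma adjusted p = 0.0036) and lost the call with median centring (adjusted p = 0.38). ADE1 differed by 0.26 ± 0.08 and was not called (limma adjusted p = 0.058; over the alternatives 0.0079 to 0.33). ADE13 differed by 0.12 ± 0.04 (limma adjusted p = 0.10).

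Genes that supply phosphoribosyl pyrophosphate and folate-bound carbon to the pathway had 2 rises, 0 falls and 8 of 10 not called (median difference 0.12). MTD1, a methylenetetrahydrofolate dehydrogenase, rose by 0.21 ± 0.05 (limma adjusted p = 0.030), and MIS1, the mitochondrial C1-tetrahydrofolate synthase, by 0.14 ± 0.04 (limma adjusted p = 0.044). Neither was called on the deposited scale or with median centring, and they kept the call under 10 and 9 of 20 alternatives. ADE3, the cytoplasmic C1-tetrahydrofolate synthase, and the serine hydroxymethyltransferase gene SHM1 differed by 0.15 and 0.12 (limma adjusted p = 0.051 and 0.10).

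In the AMP branch 2 of 8 genes rose, 1 fell and 5 did not pass, with a median difference of 0.10. The AMP deaminase gene AMD1, which returns AMP to IMP, rose by 0.21 ± 0.05 (limma adjusted p = 0.025), and the adenylate kinase gene ADK1 by 0.16 ± 0.04 (limma adjusted p = 0.035). Both lost the call on the deposited scale and with median centring, and kept it under 12 (AMD1) and 11 (ADK1) of 20 alternatives. ADK2, a mitochondrial relative, differed by 0.18 ± 0.05 (limma adjusted p = 0.052). The adenosine kinase gene ADO1 on chromosome X fell by 0.38 on the log2 scale (limma adjusted p = 0.0017).

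Downstream of GMP and in guanine turnover 0 of 7 genes rose, 1 fell and 6 did not pass, with a median difference of -0.15. GUK1, the guanylate kinase that makes GDP, differed by 0.01 ± 0.04, and YNK1, the nucleoside diphosphate kinase, by -0.04 ± 0.04. The xanthine phosphoribosyltransferase gene XPT1, on chromosome X, fell. It stood at 11.77, 11.75 and 11.85 in the arrays labelled deletion and at 12.35, 12.26 and 12.26 in those labelled wild type (log2 difference -0.50 ± 0.05; limma adjusted p = 0.00046). The purine nucleoside phosphorylase gene PNP1 and the IMP nucleotidase gene ISN1 differed by -0.15 each and were not called (limma adjusted p = 0.078 and 0.11), nor was the guanine deaminase gene GUD1 at -0.15 (adjusted p = 0.16). As deposited, PNP1 and ISN1 were called lower (limma adjusted p = 0.020 and 0.026).

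Transport had the largest rise of these lists. Of 5 genes 3 rose (60%), 0 fell and 2 did not pass (median difference 0.32), where 11.6% of all genes were called higher. FCY21, a relative of the purine and cytosine permease FCY2, stood at 8.94, 8.88 and 9.07 in the arrays labelled deletion and at 7.97, 8.14 and 8.15 in those labelled wild type. The groups were far apart, with a log2 difference of 0.87 ± 0.07 (limma adjusted p = 0.00021), and the call was made under all 20 alternatives. FCY22, a further relative, rose by 0.44 ± 0.11 (limma adjusted p = 0.030; over the alternatives 0.00076 to 0.11, called under 12 of 20). TPN1, the vitamin B6 transporter of the same family, rose by 0.32 ± 0.05 (limma adjusted p = 0.0063) and lost the call with median centring (adjusted p = 0.21). FCY2 itself differed by 0.15 ± 0.05 (limma adjusted p = 0.080).

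**Figure D3:**
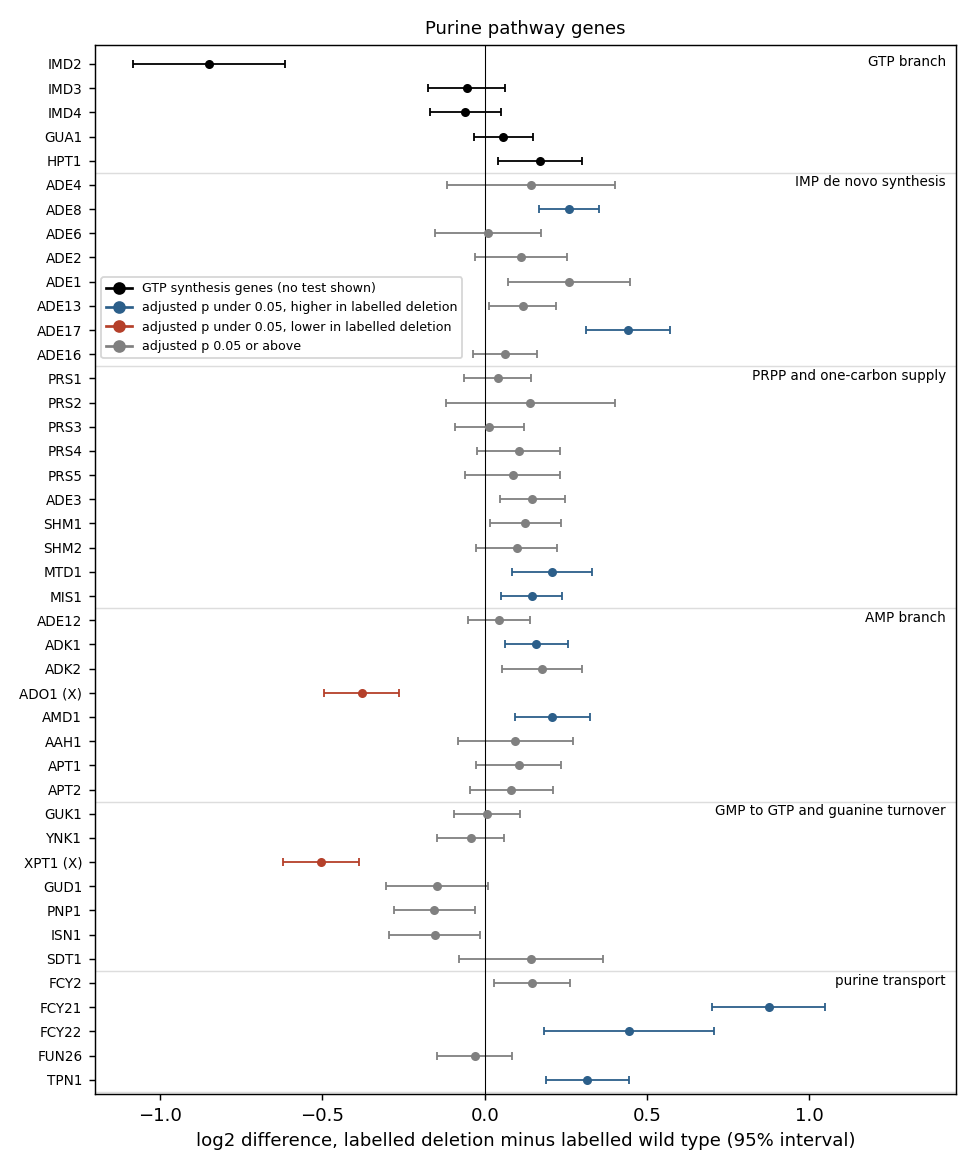
Log2 difference between labelled deletion and labelled wild type (x axis) with its 95% interval. Shown are the 5 GTP synthesis genes (black) and 38 other genes in 5 purine pathway lists, transport included. The other genes are blue where called higher, red where called lower and grey otherwise, and (X) marks chromosome X. IMD2 at -0.85 has the lowest value and FCY21 at 0.87 the highest, and both genes in red lie on chromosome X.

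Regulators of purine genes had 0 rises and 1 fall in 4 genes (median difference -0.08). CBF1, a DNA-binding protein of chromosome X, fell by 0.62 on the log2 scale (limma adjusted p = 0.0019). BAS1 and PHO2, the pair of activators of the ADE genes, differed by -0.01 and -0.08, and GCN4 by -0.08, and these were not called.

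Among 14 genes whose products act in start-site choice or early termination, the steps known to set IMD2 mRNA in GTP-replete cells, 3 rose, 0 fell and 11 did not pass (median difference 0.05), where 11.6% of all genes were called higher and 10.2% lower. NRD1, which encodes an RNA-binding protein of the early termination complex, rose by 0.20 ± 0.05 (limma adjusted p = 0.034), the polymerase subunit gene RPB9 by 0.18 ± 0.04 (limma adjusted p = 0.029) and the exosome nuclease gene RRP6 by 0.15 ± 0.04 (limma adjusted p = 0.049). As deposited, these 3 were not called, and the phosphatase gene SSU72 was called lower. With median centring the genes called were SSU72, NAB3 and the polymerase subunit gene RPO21, all lower, where 15.7% of all genes were. NAB3, the partner of NRD1, differed by -0.17 ± 0.05 (limma adjusted p = 0.062). SEN1, the helicase of that complex, differed by -0.07 ± 0.11, and DST1, which encodes the elongation factor TFIIS, by 0.21 ± 0.09; neither was called. Leaving out any 1 array labelled deletion ended all 3 calls, which held under 10 (NRD1), 10 (RPB9) and 8 (RRP6) of 20 alternatives.

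Start-site choice is also known for URA2, URA8 and ADE12, which act in pyrimidine synthesis, CTP synthesis and AMP synthesis. URA2 and URA8 fell in the group labelled deletion, by 0.36 and 0.59 on the log2 scale (limma adjusted p = 0.0011 and 0.00022), and both lie on chromosome X. ADE12 on chromosome XIV differed by 0.04 ± 0.04 and was not called.

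The genes whose profile lay closest to that of IMD2 over the 6 arrays were mostly chromosome X genes. Likeness was measured as the root mean square distance between log2 values after each gene's mean was subtracted, over 5436 genes. The 5 nearest were YJL077W-B, the isomaltase gene IMA5, the ribosome assembly genes UTP18 and URB2, and YJL070C, all on chromosome X, at distances of 0.07 to 0.09. Of the 100 nearest genes 97 lay on chromosome X and 3 elsewhere. The nearest outside it were the carnitine acetyltransferase gene YAT1, the thiamine synthesis gene THI13, the ferric reductase homologue FRE5, YHR033W and the cell wall gene CWP1, at 0.11 to 0.16. THI13 was read from an _s_at set, so its signal may come from several transcripts. The other GTP synthesis genes lay at 0.41 for IMD3 and IMD4, 0.47 for GUA1 and 0.52 for HPT1, which ranked 1275 (IMD3), 1319 (IMD4), 2839 (GUA1) and 4149 (HPT1) from the nearest. This distance is set mainly by the difference between the labelled groups, which IMD2 was chosen for.

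**Figure D4:**
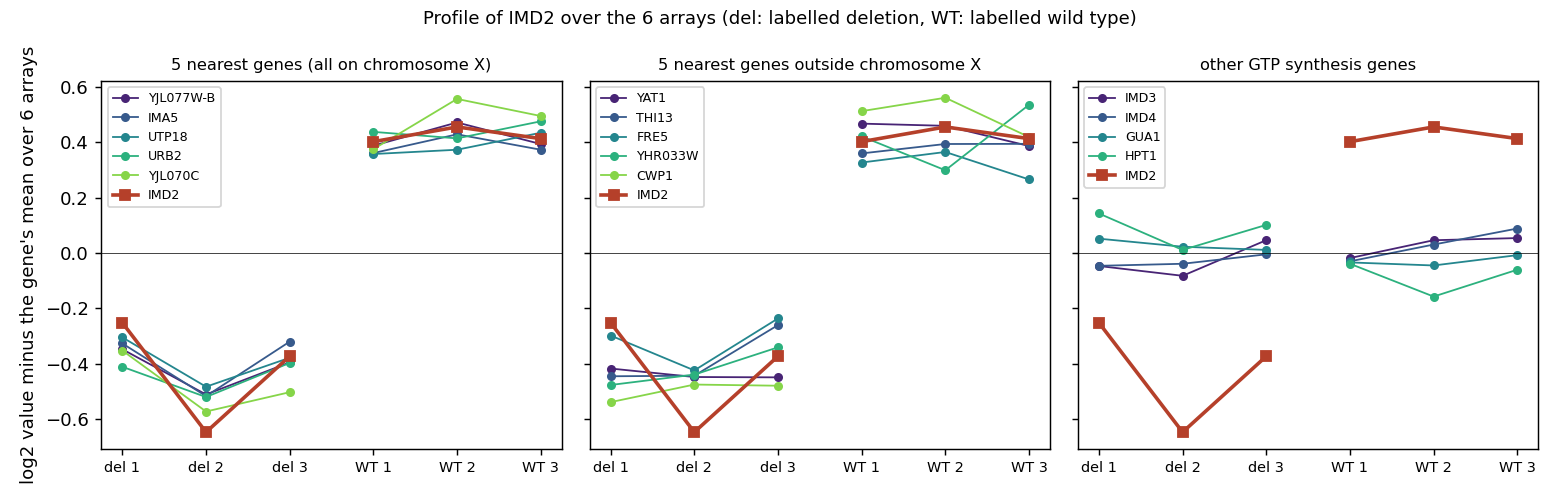
Log2 value of each gene minus its mean over the 6 arrays (y axis) in the labelled deletion (del) and labelled wild type (WT) arrays (x axis), with IMD2 as red squares in each panel beside its 5 nearest genes, its 5 nearest genes outside chromosome X, and the other GTP synthesis genes. IMD2 and the nearest genes are low in all 3 deletion arrays, while the values of IMD3, IMD4, GUA1 and HPT1 lie between those of the IMD2 groups.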

How the data were processed

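Biotin-labelled cRNA was hybridised to Affymetrix arrays, per the labels' protocols. The authors deposited 1 linear intensity per probe set and array, for 10928 probe sets; their summarization and scaling are not given in the sources here. Array medians differed by up to 0.26 on the log2 scale, so all probe sets were quantile normalized and taken as log2(value + 16), which understates differences of dim genes. Names come from the platform's annotation and the R64 gene table; for the 47 genes with several, the one brightest on average was used. Differences are labelled deletion minus labelled wild type, tested in R 4.3.3 with limma 3.58.1 (lmFit, eBayes) over 5449 genes, with Benjamini-Hochberg adjustment. Of 30 missing values none fell on the 5 GTP synthesis genes, and 1 listed gene, RPB2, was fitted on the arrays that had a value. The fit was also run on simulated data. No outcome of that run is given, so it is no evidence on how the fit performs on these arrays.

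The members, gene lists and alternatives were chosen with earlier results of these data known. Named genes are THP3, the 5 members, up to 4 genes of each list with the smallest p, the nearest measured neighbours and the genes most like IMD2; ADE16, GUK1, YNK1, SEN1, DST1, SSU72, RPO21, PAU14 and the strain markers were added for their role or value. ADE5,7 had no named probe set. No sequence tables were used here.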

Additional observations from a re-analysis of the deposited data

How the results depend on the processing

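The difference of IMD2 kept its sign in all 19 alternatives that include its probe set (-0.98 to -0.74, and -0.88 without both arrays numbered 3), and so did those of IMD3, IMD4 and HPT1 in 20 each. With each array left out in turn, IMD2 lay at -0.93 to -0.74, IMD3 at -0.09 to -0.03, IMD4 at -0.09 to -0.03, GUA1 at 0.05 to 0.07, HPT1 at 0.13 to 0.21 and THP3 at 0.15 to 0.59, and 1 of the 5 GTP synthesis genes was called each time. With median centring the differences were -0.16 for IMD3, -0.18 for IMD4, -0.0715 for GUA1 and 0.060 for HPT1, since that scaling moves all genes. The difference of GUA1 was 0.022 as deposited and 0.036 without chromosome X genes. THP3 was called when the arrays numbered 3 formed a batch (0.33) and without them (0.41).

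The labels number the arrays of each group 1 to 3. Deviations from the group means correlated at -0.15, -0.03 and 0.61 (r over genes) for arrays with the numbers 1, 2 and 3. The highest r across different numbers was 0.48, so the numbers were not taken as pairs. Deviations of 3 arrays sum to 0, so these values depend on each other. The main fit holds no term for the arrays numbered 3, and with them as a batch 1573 genes were called. With the array number as a replicate block, 1297 genes were called against 1184, 2 of the 5 members were called (HPT1 added), and THP3 was called (0.33). The replicate block left 1 call in the carbon supply list and 1 among the start-site and attenuation factors.

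Counts of calls in short lists moved easily. The trended, robust spread model called 2 of the 5 GTP synthesis genes, 4 genes of IMP synthesis, 4 of the carbon supply list and 2 purine regulators, and the unmoderated test called 2 regulators too. Without _s_at and _x_at probe sets IMD2 is not read, so 0 of the other 4 members were called. As deposited, the count was 0 in the carbon supply list, 3 in guanine turnover and 1 among the attenuation factors. With median centring it was 1 in IMP synthesis, 0 in carbon supply, 1 in the AMP branch and 3 in guanine turnover. Without chromosome X genes 718 were called, with 0 in carbon supply and 1 attenuation factor. The AMP branch had 0 (ADO1 left out, AMD1 and ADK1 not called). With CBF1, URA2 and URA8 left out, regulators and alternative-start genes had 0. Without both arrays numbered 3 the count was 0 in carbon supply, 1 in the AMP branch and 0 among the attenuation factors, and with those arrays as a batch it was 2 in guanine turnover. With each array left out in turn the counts were 830 to 983 for all genes, 2 to 3 in IMP synthesis, 0 to 1 in carbon supply, 1 to 2 in the AMP branch, 1 to 2 in guanine turnover, 2 to 3 in transport and 0 to 2 among the attenuation factors. The carbon supply count was 1 without ypr045c_deletion replicate 2 and 0 without any other array. The AMP branch count was 1 without ypr045c_deletion replicate 1 or 3 or wild_type replicate 2, and that of guanine turnover was 2 without wild_type replicate 1. For the attenuation factors it was 0 without any 1 array labelled deletion and 1 without wild_type replicate 2 or 3. Other causes were not tested. All 5 members stood at least 11.0-fold over the background limit in both groups, which does not address cross-matching of the IMD2 probe set. Each group had 3 arrays, and what limits the precision was not tested.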
